A study of Mus musculus with 6 samples.

Results

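Ras-related small GTPases are membrane switches that signal while they hold GTP and fall silent once the GTP is cut. Exchange factors load them and GTPase-activating proteins shut them off, so that a cell sets their output mainly through these regulators. In lymphocytes, classical Ras links antigen and cytokine receptors to the MAP kinases, R-Ras and Rap proteins act on integrins and adhesion, Rheb switches on the growth kinase mTOR, and Ral proteins direct vesicle delivery. The genes described here are Rras2, Rras and Mras of the R-Ras branch, the classical Ras gene Nras, Rap1a and Rap1b, Rheb and Rala. They were chosen by name, as the probe sets whose gene symbol in the array's platform annotation is one of 9 listed genes. The choice gave 17 probe sets of 8 genes, out of 45037 probe sets and 18193 named genes, and Hras was not analysed here.

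The arrays (Affymetrix Mouse Genome 2.0 GeneChip) compared G1-phase, v-abl-transformed pre-B cells 2 hours after 1 Gy of γ-rays (3 arrays) with mock-irradiated cells at 0 Gy (3 arrays). Both groups were wild type, carried an Eμ-Bcl2 transgene that counters apoptosis, and had been kept in 3 μM STI-571 (imatinib) for 48 hours, which blocks the Abl kinase and the passage from G1 to S phase. Each of 3 independently derived lines gave 1 array per dose, and pairs of arrays with the same replicate number share a line. With dose as the single factor, the p-values therefore reflect how far these lines differ. With the line added to the fit as a block, they reflect how far the change after 1 Gy differs between lines. The lines are transformed cells held in arrest by a drug, and nothing here was measured in dividing or primary pre-B cells.

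Each probe set combines several short probes, mostly close to the 3′ end of a transcript, and its value is a linear signal in arbitrary units, scaled on each array to a trimmed mean of 500. Median signals were 51.7 to 54.3 on the irradiated arrays and 51.6 to 59.4 on the mock arrays. All 7 measured B lineage markers were at or above 100 on every array, and the markers of T cells (6 of 6), erythroid cells (2 of 2) and stromal cells (4 of 4) were under 100 on every array. The B lineage markers together summed to 57016 to 79271 on the irradiated arrays and 73470 to 83566 on the mock arrays. Of them, Rag1 was lower after 1 Gy (limma with dose only, adjusted p under 0.05). Of 6 myeloid markers, all but Itgam were under 100 on every array, and the 6 together summed to 394 to 481 on the irradiated arrays and 251 to 335 on the mock arrays. RNA quality was read from the 3′ over 5′ signal ratios of beta-actin and Gapdh. The beta-actin ratio was 1.32 ± 0.057 at 1 Gy and 1.45 ± 0.051 at 0 Gy (SD, n = 3 lines) and did not overlap between doses. The Gapdh ratio was 0.793 ± 0.008 at 1 Gy and 0.82 ± 0.07 at 0 Gy. Its ranges overlapped (0.785 to 0.8 at 1 Gy and 0.768 to 0.9 at 0 Gy). The part of the B lineage, myeloid or beta-actin differences in the results was not tested.

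Rras2 rose strongly after irradiation, and it was the only one of these genes that passed the test with dose as the single factor. Rras2 (also TC21) encodes an R-Ras GTPase that can transform cells when mutated and that, in mouse lymphocytes, associates with the antigen receptors. On probe set 1417398_at its signals were 7389, 9555 and 6934 in the 3 irradiated lines, against 1801, 1050.0 and 914 in the same lines at 0 Gy. The second probe set, 1448689_at, gave 5487, 7605 and 5585 in the irradiated lines and 1025, 780 and 771 in the mock lines. Every irradiated array lay above every mock array on both probe sets, and line 1 had the highest mock signals.

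Within lines, the rise on 1417398_at was 4.10-fold in line 1, 9.10-fold in line 2 and 7.58-fold in line 3. On 1448689_at it was 5.35-fold, 9.75-fold and 7.24-fold in the same order, so that line 1 responded least and line 2 most on both. The mean signals were 7959 ± 1401 at 1 Gy and 1255 ± 478 at 0 Gy on 1417398_at, and 6226 ± 1196 at 1 Gy and 859 ± 144 at 0 Gy on 1448689_at (SD, n = 3 lines). On 1417398_at the log2 fold change was 2.72 with a standard error of 0.29 (limma, adjusted p = 0.0185), which is 6.57-fold with a 95% interval of 3.98 to 10.8. On 1448689_at it was 2.85 with a standard error of 0.20 (limma, adjusted p = 0.00957), or 7.23-fold with an interval of 5.12 to 10.2. Of 21762 probe sets tested, 0.381% and 0.303% had a larger absolute change, and by its brighter probe set Rras2 stood at place 19 of the 204 genes that rose. The arrays measure RNA in bulk, so that more RNA per cell and more cells with the RNA cannot be told apart.

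**Figure D1:**
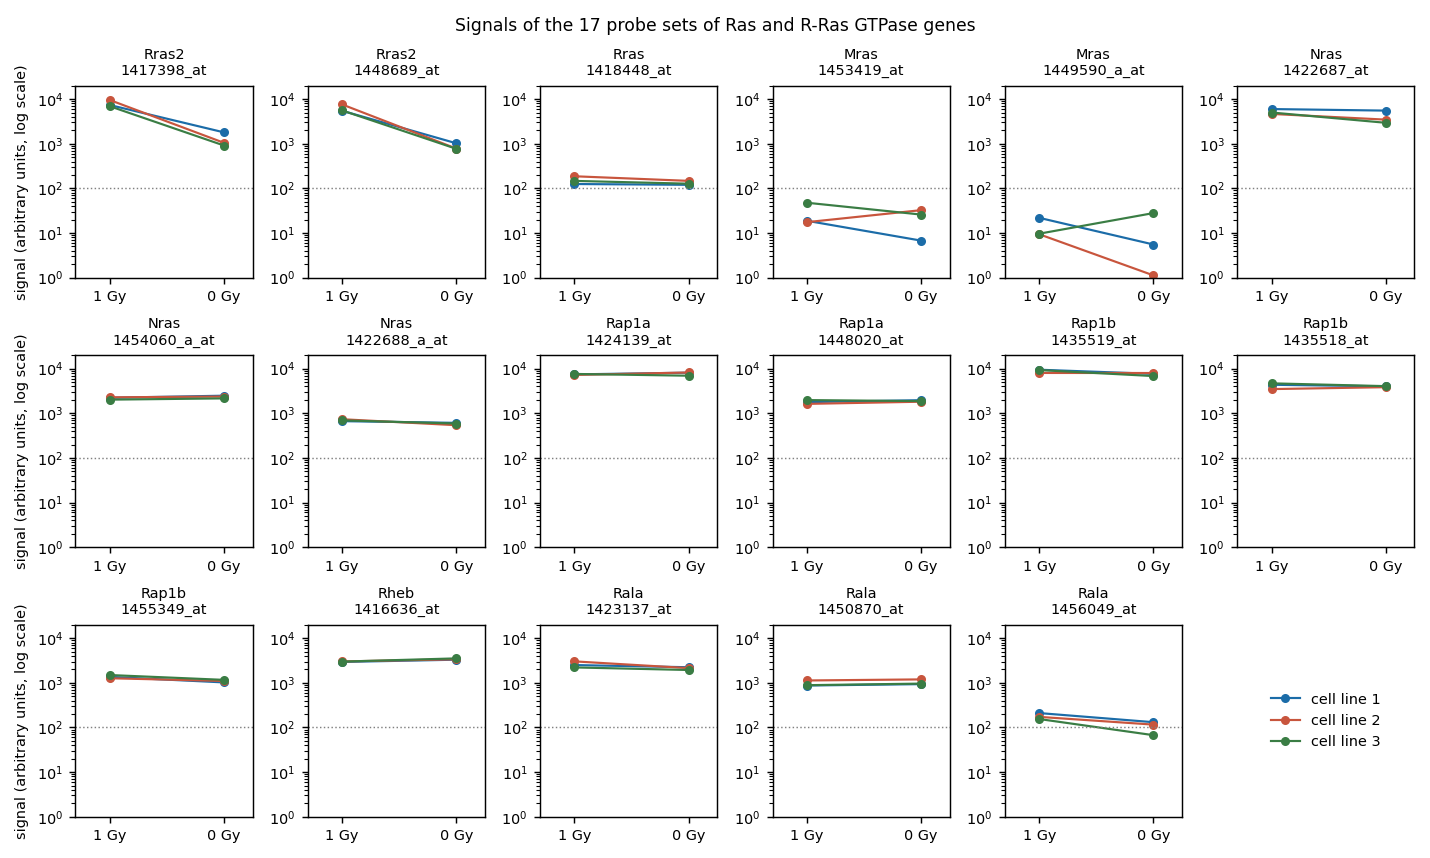
Signals (vertical axis, logarithmic, arbitrary units, with the minimum of 100 dotted) of all 17 probe sets at 1 Gy and 0 Gy (horizontal axis), the pair of arrays from a cell line being connected in 1 colour. The Rras2 panels run between 771 and 9555 and slope steeply in all 3 lines, those of Mras lie under 100, and the dimmest Rala panel, with signals of 67.2 to 210, is higher at 1 Gy in all 3 lines.

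Both Rras2 calls held when the cell line was added to the fit as a block (limma, adjusted p = 0.0123 and 0.0103). With 1 array left out the log2 fold change stayed between 2.52 and 3.01 on 1417398_at and between 2.70 and 2.99 on 1448689_at, but the adjusted p rose to as much as 0.0859 and 0.0581. On 1417398_at the call held only without the replicate 1 mock array (adjusted p = 0.0385), and on 1448689_at it held without that array (0.0385) and without the mock array of replicate 3 (0.0470). In the 6 fits that each left out 1 array, the unadjusted p was 3.13e-05 to 7.00e-04 on 1417398_at.

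The promoter of Rras2 is shown beside that of Rras, because the pair are close relatives on the same chromosome and only Rras2 passed the test. Each run is the 250 bases before an annotated start (RefSeq, GRCm38.p6), written 5′ to 3′ on the gene's strand. Capitals mark GC boxes (GGGCGG on either strand) in Rras2, and a match to the κB consensus, the binding motif of NF-κB, in Rras.
Rras2, chr7:114117782-114118031, minus strand: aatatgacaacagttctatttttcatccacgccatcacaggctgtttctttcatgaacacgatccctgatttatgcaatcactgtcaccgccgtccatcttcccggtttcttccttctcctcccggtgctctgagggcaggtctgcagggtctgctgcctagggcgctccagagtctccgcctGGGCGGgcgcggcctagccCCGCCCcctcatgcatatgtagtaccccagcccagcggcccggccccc
Rras, chr7:45017692-45017941, plus strand: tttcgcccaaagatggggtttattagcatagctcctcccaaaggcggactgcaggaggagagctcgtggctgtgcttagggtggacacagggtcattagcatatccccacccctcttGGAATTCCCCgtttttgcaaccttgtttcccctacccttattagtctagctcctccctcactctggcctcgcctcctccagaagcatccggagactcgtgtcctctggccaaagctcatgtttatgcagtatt

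The Rras2 window held 2 GC boxes, the nearer 42 bases before the start, and no match to the κB consensus, the AP-1 site (TGANTCA) or the cAMP response element (TGACGTCA), each searched on both strands. The κB match of Rras lay 123 bases before that start, and the windows of its other annotated starts held none. Over all 32851 promoter windows of this length, 32.7% held a GC box, 7.25% the κB consensus, 6.75% the AP-1 site and 1.55% the cAMP response element. The table held 9 windows of 7 of the 8 genes measured (all but Rap1a), with a GC box in 6, the κB consensus in 1, the cAMP response element in 1 (Rap1b) and the AP-1 site in 0. No match overlapped a match to another of these motifs in the pair of windows shown. A match or its absence describes these letters and not the binding of a factor.

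Rras, the founding R-Ras gene, whose product favours integrin activation, had low signals that overlapped between doses. It gave 125, 187 and 147 in the irradiated lines and 120, 148 and 128 in the mock lines. Its log2 fold change was 0.20 (95% interval -0.27 to 0.68, adjusted p = 0.596 from limma), with higher values in 3 of 3 lines. Mras, an R-Ras relative that works with Shoc2 to release the kinase Raf, gave 9.40 to 47.8 in irradiated cells and 1.13 to 32.6 in mock cells over its 2 probe sets. These were the only members under 100 on every array, and they were not tested. The 3 R-Ras genes therefore differed widely in what was measured, from signals of 771 and above for Rras2 to signals under the minimum for Mras, although signals of different probe sets are not on a common scale.

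Of the 15 member probe sets tested, 2 were called, both of Rras2, where 4.48% of all tested probe sets were called (1.93% higher and 2.55% lower). Each of the 15 reached 100 on at least 1 array of either dose, so that none passed the minimum through 1 dose alone. With the cell line added as a block 3 were called, all higher, where 18.3% of all tested probe sets were (6.78% higher). At an unadjusted p under 0.05 there were 3 of the 15 (23.0% of all tested) and 4 with the block (36.6% of all tested). In 9 of the 15 all 3 lines were higher after irradiation and in 3 all were lower, which was so in 24.7% and 34.5% of all tested probe sets. The median log2 fold change of the 15 was 0.25, beside -0.06 over all tested probe sets. The 13 member probe sets that were not called had log2 fold changes of -0.19 to 0.82 (8 above 0 and 5 below 0) and adjusted p of 0.168 to 0.867 (limma). In 7 of the 15 the irradiated and mock arrays did not overlap (6 higher and 1 lower), which was so in 29.9% of all tested probe sets (12.8% higher and 17.1% lower).

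**Figure D2:**
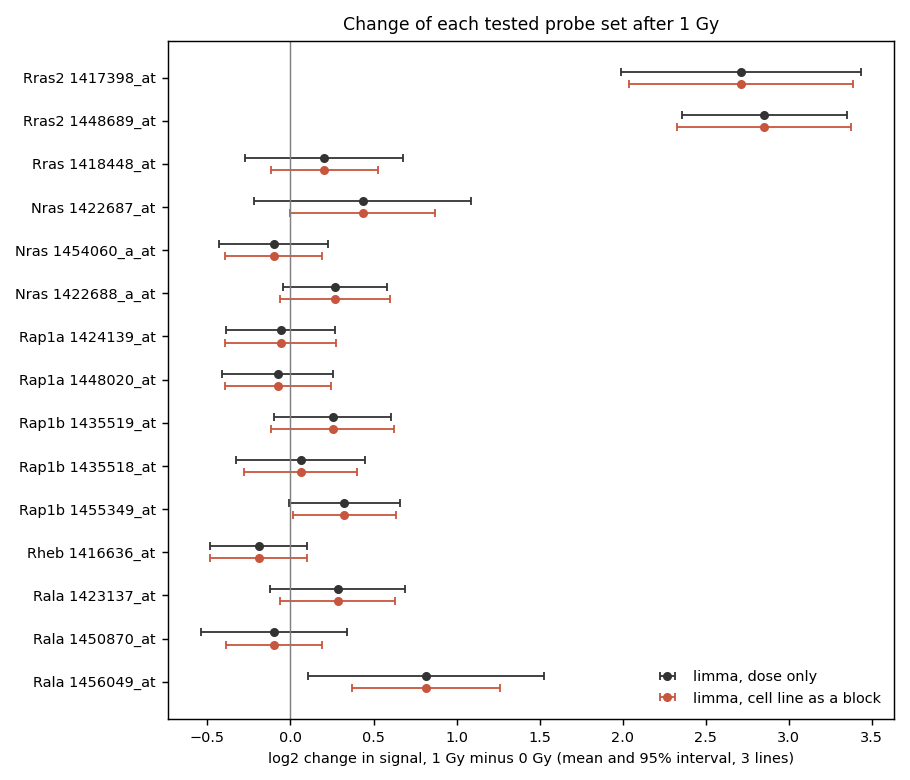
Log2 change in signal of the 15 tested member probe sets (horizontal axis, 1 Gy minus 0 Gy, points with 95% intervals from limma over 3 lines), black for dose only and red for the fit that adds the cell line as a block. The Rras2 intervals lie above 1.99 and the others reach no higher than 1.53. With dose only, the dim Rala probe set is the other one whose interval lies above 0.

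Nras, the classical Ras member measured here, acts below receptor kinases and is a frequent site of activating mutations in leukaemia. On its brightest probe set, 1422687_at, signals were 6000, 4666 and 5022 in the irradiated lines and 5538, 3477 and 2952 in the mock lines. The groups overlapped because line 1 was high at both doses, and the increase within lines was 1.08-fold, 1.34-fold and 1.70-fold. Its log2 fold change of 0.44 (95% interval -0.22 to 1.09) did not pass the test (adjusted p = 0.396, and 0.138 with the block, limma). Probe set 1422688_a_at, whose suffix marks probes shared by several transcripts of 1 gene, gave 668, 737 and 695 in irradiated and 611, 542 and 590 in mock lines. These groups did not overlap, with a log2 fold change of 0.27 and an adjusted p of 0.283 (limma). The remaining probe set, 1454060_a_at, was lower in 3 of 3 lines, with 2232, 2280 and 2025 in irradiated against 2482, 2376 and 2162 in mock lines (log2 fold change -0.10, adjusted p = 0.708). The Nras probe sets thus did not all point the same way, and none of their intervals excluded 0 in either fit.

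The Rap1 proteins, which drive integrin adhesion of lymphocytes, come from a pair of genes with nearly identical products. Rap1a on probe set 1424139_at gave 7450, 7243 and 7623 in irradiated lines and 8137, 8225 and 6962 in mock lines. On 1448020_at it gave 1781, 1627 and 1979 in irradiated lines and 1969, 1820 and 1879 in mock lines. Both were lower in lines 1 and 2 and higher in line 3, and their log2 fold changes were -0.06 (95% interval -0.39 to 0.27) and -0.08 (-0.41 to 0.26). Neither passed the test (limma, adjusted p = 0.842 and 0.793).

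Rap1b was slightly higher on most arrays of irradiated cells. Its probe set 1435519_at gave 9477, 8024 and 9309 in irradiated lines and 7658, 7996 and 6836 in mock lines. Probe set 1455349_at gave 1362, 1268 and 1497 in irradiated and 1023, 1102 and 1166 in mock lines. On both the groups did not overlap, and the log2 fold changes were 0.25 (adjusted p = 0.361 from limma) and 0.33 (adjusted p = 0.230, and 0.123 with the block). On 1455349_at the interval was -0.01 to 0.66, and 0.02 to 0.63 with the block. On the third, 1435518_at, signals were 4363, 3489 and 4694 in irradiated and 4022, 3851 and 4064 in mock lines, with line 2 lower and the other lines higher (log2 fold change 0.06).

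Rheb, the GTPase that activates mTOR when the TSC complex is off, was slightly lower in all lines. Its signals were 2941, 3015 and 2991 in irradiated lines and 3304, 3375 and 3534 in mock lines. The groups did not overlap, and their means were 2983 ± 38.2 at 1 Gy and 3404 ± 118 at 0 Gy (SD, n = 3 lines). The log2 fold change was -0.19 (95% interval -0.48 to 0.10) and did not pass the test (adjusted p = 0.408, and 0.279 with the block, limma).

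Rala, whose product binds the exocyst complex of vesicle delivery, gave different values on its 3 probe sets. The dimmest, 1456049_at, had signals of 210, 173 and 155 in the irradiated lines and 131, 116 and 67.2 in the mock lines. These groups did not overlap, and the log2 fold change was 0.82 (95% interval 0.11 to 1.53). It missed the threshold with dose only (adjusted p = 0.168, limma) and passed once the cell line was blocked (adjusted p = 0.0396). The mock array of line 3 was under 100, the level below which probe sets were left out, and with signals under 100 set to 100 the log2 fold change was 0.63. On the brightest, 1423137_at, signals were 2503, 3027 and 2215 in irradiated and 2238, 2138 and 1941 in mock lines. The log2 fold change there was 0.28 (adjusted p = 0.374, and 0.193 with the block). The third, 1450870_at, was lower in 3 of 3 lines, with 871, 1131 and 887 in irradiated and 936, 1195 and 962 in mock lines (log2 fold change -0.10). The call on Rala therefore rests on 1 of its 3 probe sets.

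The genes whose profile over the 6 arrays lay nearest that of Rras2 were sought among 9677 other genes, each by its brightest probe set centred on its own mean log2 signal. Likeness was measured as the root mean square difference in log2 signal. The nearest was Ccrl2, a chemokine receptor-like protein, at 0.171, a smaller difference than that of the second Rras2 probe set (0.185). It had signals of 810, 751 and 633 in irradiated lines and 142, 103 and 79.6 in mock lines. Next came Tnfaip3 (A20, an inhibitor of NF-κB signalling) at 0.347, Dusp16 (a phosphatase of MAP kinases) at 0.362, Pgm5 (a relative of phosphoglucomutase) at 0.367 and Mreg (melanoregulin, of organelle transport) at 0.369. Genes chosen to lie near the Rras2 profile are higher after 1 Gy by that choice, so that no test of them is given. Pgm5 had mock signals under 100 (21.4 to 26.3) and passed the minimum through the irradiated arrays alone. All share the arrays with Rras2, so that differences between arrays enter all profiles alike.

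**Figure D3:**
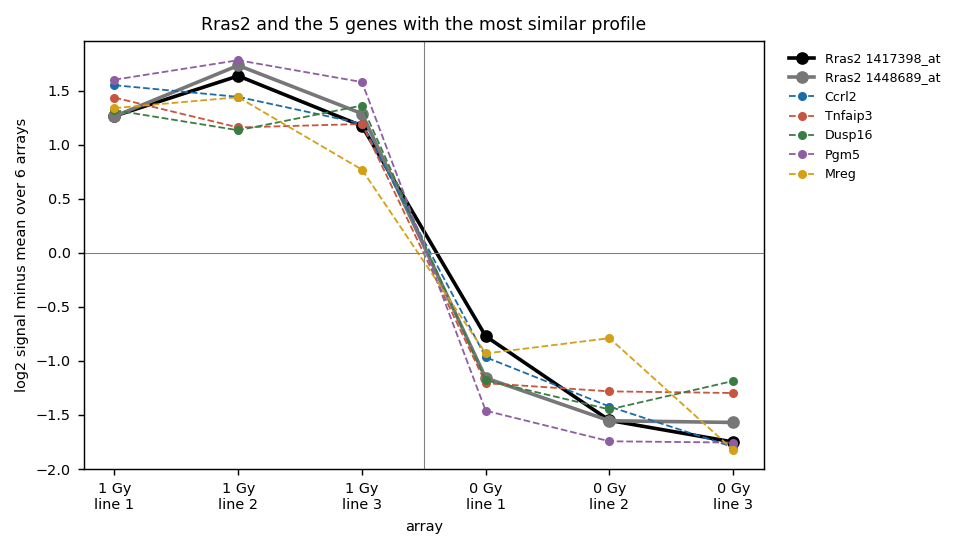
Log2 signal minus its mean over the 6 arrays (vertical axis) for the Rras2 probe sets (thick lines) and the 5 genes nearest to the brighter of them (dashed), with the arrays of irradiated lines to the left of those of mock lines (horizontal axis). The mock array of line 3 is the lowest on both Rras2 probe sets and in all of the 5 genes but Dusp16.

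Other genes of Ras signalling were taken from lists of relatives, exchange factors, GTPase-activating proteins, effectors, inhibitors and lipid-modifying enzymes. Of 118 listed genes, 89 were tested by their brightest probe set, and 4 rose and 3 fell, where 5.31% of 9678 genes were called (2.11% higher and 3.20% lower). With the block, 13 rose and 12 fell, where 21.3% of all genes were called (6.61% higher and 14.7% lower). Of the 13, Rap1gap2 passed the minimum only through irradiated arrays. When all arrays were brought to the same median, 1 rose and 1 fell. Before adjustment 13 of the 89 had a p under 0.05 in the higher direction and 13 in the lower (limma). The shares over all genes were 8.36% and 16.7%, and the 13 that were higher include Rap1gap2. The median log2 fold change of the 89 was -0.07, and -0.11 over all genes.

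Among 14 other GTPases of the Ras family, 2 rose and 0 fell, with 4 higher and 1 lower at an unadjusted p under 0.05 (limma). Over all genes the shares were 2.11% higher and 3.20% lower, and 8.36% and 16.7% at the unadjusted p. With the block 3 rose and 0 fell, where 6.61% and 14.7% of all genes did. Gem and Rrad, the pair that rose with dose only, are related GTPases that restrain calcium channels. Gem gave 819, 812 and 1271 in irradiated lines and 362, 348 and 470 in mock lines, which is 1.28 on the log2 scale (limma, adjusted p = 0.0453). Rrad gave 503, 538 and 670 in irradiated lines and 259, 296 and 315 in mock lines (log2 fold change 0.97, adjusted p = 0.0401). In both, each irradiated array lay above every mock array.

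Of 20 GTPase-activating proteins, 1 rose and 2 fell, where 2.11% and 3.20% of all genes did. Before adjustment, a rise reached p under 0.05 in 3 of them and a fall in 5 (limma), beside 8.36% and 16.7% of all genes. The fit with the block called 4 rises and 4 falls in this list, beside 6.61% and 14.7% of all genes. The rises before adjustment and with the block include Rap1gap2, which passed the minimum only through irradiated arrays. Nf1 (neurofibromin, which shuts off classical and R-Ras proteins) gave 210, 191 and 198 in irradiated lines and 100, 83.5 and 79.7 in mock lines, a difference of 1.19 on the log2 scale (limma, adjusted p = 0.0224). In lines 2 and 3 the mock signals lay under the minimum of 100, and only 1 probe set of Nf1 was tested. Rasa3, which acts on Ras and Rap1, fell to 578, 548 and 768 in irradiated lines, against 1234, 1583 and 1803 in mock lines (log2 fold change -1.29, adjusted p = 0.0374). Sipa1l3, of a family that acts on Rap proteins, fell to 145, 174 and 154 in irradiated lines, against 344, 409 and 282 in mock lines (log2 fold change -1.12, adjusted p = 0.0362).

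Of 20 exchange factors and adaptors, 0 rose and 1 fell, with 2 higher and 3 lower at an unadjusted p under 0.05 (limma). For this and the following lists, the shares over all genes were 2.11% higher and 3.20% lower. At the unadjusted p they were 8.36% and 16.7%. Rapgef3 (Epac1, the cAMP-activated exchange factor of Rap proteins) gave 115, 131 and 156 in irradiated lines and 415, 546 and 291 in mock lines, which is -1.60 on the log2 scale (limma, adjusted p = 0.0368). Its 4 tested probe sets had log2 fold changes of -2.41 to -1.42, and 1 was called. Of 9 Sprouty, Spred and Dok type inhibitors, 1 rose and 0 fell, with 3 higher and 0 lower at an unadjusted p under 0.05 (limma). With the block 3 rose and 0 fell, where 6.61% and 14.7% of all genes did. The gene called with dose only was Erbin, a scaffold protein that can hold down Ras to Raf signalling. It gave 5140, 5399 and 5566 in irradiated lines and 2238, 2639 and 3210 in mock lines (log2 fold change 1.01, adjusted p = 0.0383), and 2 of its 4 probe sets were called. Of 18 effectors and 11 lipid-modifying and delivery proteins 0 were called, with 1 higher and 2 lower in each list at an unadjusted p under 0.05 (limma). With the block, 1 effector rose and 1 fell, and 1 of the 11 rose. The effector list shares Ralgds, Rgl1 and Rgl2 with the exchange factors. The effector that was higher, before adjustment and with the block, was Ralgds.

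**Figure D4:**
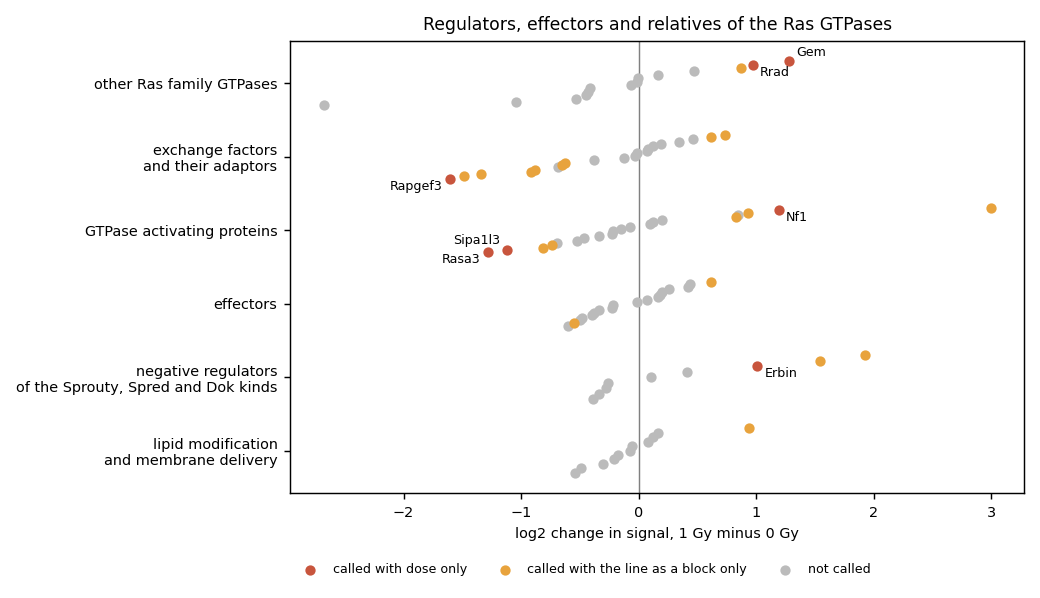
Log2 change in signal (horizontal axis, 1 Gy minus 0 Gy) of the tested genes of each list (rows, 1 point a gene by its brightest probe set), red where called with dose only, orange where called only with the block and grey otherwise. The 4 genes that rose and the 3 that fell are named, and most points lie between -1 and 1.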

How the data were processed

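Expression was measured on 6 arrays, and each deposited value is a probe set's intensity on a linear scale, made with MAS5 according to the submitters' processing notes. The 2% trimmed mean of each array is 500. The RMA and quantile normalization of the study's methods were not applied to these values. Without the 64 controls, signals (under 1 set to 1) were taken to log2, and 21762 probe sets that reached 100 on 1 or more arrays were tested with limma (version 3.58.1, R 4.3.3). Dose was the single factor, after the methods' ANOVA, with Benjamini-Hochberg adjustment over all of them. An adjusted p under 0.05 was a call. Of 45037 probe sets, 34945 had 1 gene name, 932 several (left unnamed) and 9160 none. Genes named by rule are all members, up to 4 called genes per list and the 5 nearest profiles. Outside this rule, Ralgds, Rap1gap2 and the markers Itgam and Rag1 were named after their values were seen. Rgl1 and Rgl2 were named only as genes that the effector list shares. The members and lists were chosen with earlier results of these data known. By the series design a replicate number stands for 1 cell line. Deviations from group means correlated at 0.668 to 0.781 within numbers (3 pairs) and -0.495 to -0.053 between them, so the line was also fitted as a block. The code was checked on simulated arrays. The number of arrays limits the precision, and no detection flags were used. Alternatives covered the block, filters, scaling, the log scale, limma's prior, the methods' ANOVA, the mean of a gene's probe sets, and arrays or lines left out.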

Additional observations from a re-analysis of the deposited data

How the results depend on the processing

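Over all 22 alternatives Rras2 was higher after 1 Gy, and the calls depended on the number of arrays and on the filter. The log2 fold change was 2.48 to 3.05 on 1417398_at and 2.64 to 3.07 on 1448689_at with arrays or lines left out. No call was made with a whole line left out (adjusted p of 0.107 to 0.239, 2 arrays per dose, limma). Without the filter, which more than doubles the probe sets tested, the values of 2.72 and 2.85 had adjusted p of 0.108 and 0.0692. With the replicate block both adjusted p were 0.234 (a combination added after seeing the data, as were the block with either scaling). With dose only, the unadjusted p also rose without the filter, from 9.65e-05 to 2.74e-04 and from 8.73e-06 to 4.49e-05 (limma). By the methods' ANOVA with Benjamini-Hochberg adjustment 1417398_at missed the threshold (log2 fold change 2.72, adjusted p = 0.0570). Member probe sets called numbered 3 with the block (also with either scaling), 0 without the filter (with or without the block, 3 at an unadjusted p under 0.05 in both), 1 by that ANOVA and 0 to 2 with arrays left out (2 to 4 at an unadjusted p under 0.05). The Rala probe set 1456049_at was called in the 3 fits with the block and the filter. With arrays or lines left out, uncalled values near 0 turned sign for Rap1a 1424139_at (-0.155 to 0.002, turned without replicate 2), Rap1b 1435518_at (-0.028 to 0.186, turned without the replicate 3 irradiated array and, at -0.013, without replicate 3) and Rala 1450870_at (-0.221 to 0.011, turned without the replicate 2 mock array). Pathway genes called numbered 25 with the block, 2 with a common median, 0 without the filter and 0 to 1 with arrays left out. Over all probe sets, 975 were called (419 higher, 556 lower), 3974 with the block, 640 with a common median (366 higher, 274 lower), 1 without the filter, 1476 with signals under 100 set to 100, 1515 with a trend in the prior variance, 352 and 2850 by the ANOVA with adjustment and with the methods' own thresholds, and 0 to 120 with arrays or lines left out (3109 to 4618 at an unadjusted p under 0.05).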

Other observations

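With the cell line as a block, regulators of the Ras and Rap GTPases were called in both directions, and the genes in this paragraph beyond those named above were chosen after their values were seen. Among 20 GTPase-activating proteins, 4 fell and 4 rose. These rises include 1 gene that passed the minimum only through irradiated arrays and is described in the next paragraph. Among 20 exchange factors and adaptors, 7 fell and 2 rose, where 14.7% and 6.61% of all genes did. Those that fell were Rapgef2, Rapgef3 and Rapgef5 (exchange factors of Rap proteins), Rasgrp2 and Rasgrp3 (exchange factors that respond to diacylglycerol or calcium), Sos2 and Ralgps2. Those that rose were the adaptor Grb2 and the Ral exchange factor Ralgds. The block called 1 of 2 tested probe sets of Grb2 and of Rasgrp3, and 1 of 3 of Ralgps2. It called 2 of 4 of Rasgrp2 and of Rapgef3, and every tested probe set of the other genes named here. Ralgps2 gave 27.4 and 21.4 in irradiated lines 2 and 3, against 114 and 62.8 in the same lines at 0 Gy. Rasgrp3 gave 39.6 in irradiated line 2, against 74.8 in that line at 0 Gy. All of these signals but the 114 lay under the minimum of 100. On its brightest probe set Rasgrp2 gave 829, 624 and 1135 in irradiated lines and 1482, 1257 and 2127 in mock lines (log2 fold change -0.92, adjusted p = 0.0172 with the block and 0.142 without it, limma).

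Rap1gap2, a GTPase-activating protein of Rap1, had signals of 711, 88.9 and 440 in irradiated lines and 89.3, 10.98 and 55.8 in mock lines. All 3 lines were higher after 1 Gy, and the lines differed widely at both doses. Every mock signal was under 100, so that Rap1gap2 was tested only because of its irradiated arrays, and no fold change or test is given. Spred1, which recruits neurofibromin to shut off Ras, gave 1332, 1197 and 1557 in irradiated lines and 793, 209 and 275 in mock lines. Its 6 tested probe sets had log2 fold changes of 1.30 to 1.92, of which 1 was called with dose only and 5 with the block. Spred2, of the same family, gave 393.5, 360 and 581 in irradiated lines and 256, 90.9 and 144 in mock lines. Of its 3 tested probe sets (log2 fold changes 0.95 to 1.54), 0 were called with dose only and 2 with the block. Rap1gap2, Spred1 and Spred2 were named after their values were seen.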
